A study of Rattus norvegicus with 4 samples.

Results

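The genes described here are the histone lysine-modifying and deacetylase genes of the rat. Their symbols in RefSeq consist of Kdm, Kmt, Kat, Hdac, Sirt or Setd followed by digits and at most 1 letter, together with Ezh1, Ezh2, Ehmt1, Ehmt2, Ep300 and Crebbp. The rule used names alone and no measured value. It fitted 67 symbols, of which 46 had a matched probe among the 16579 genes measured on the arrays. RNA came from NR8383, a cell line of alveolar macrophages established by lavage of a normal rat lung, after 4 h with COOH-functionalized carbon nanotubes (the material NRCWE042) at 6.8 cm2 of nanotube surface per cm2 of culture. The 4 exposed samples, called replicates 1 to 4, are biological replicates per the labels and form the only group here. The labels do not say how their cultures were separated, so an SD below (n = 4) measures the spread between these samples. The study also names an unexposed condition, which was not analysed here, so no value below is an effect of the nanotubes and no test between conditions was made. The line is grown in part floating and in part adherent, and the cells had been through 20 passages.

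Histone tails carry acetyl and methyl groups on lysines that help decide whether a gene is open to transcription. Acetyltransferases (Kat genes, Ep300, Crebbp) add acetyl groups and are associated with active genes, while the zinc-dependent deacetylases (Hdac) and the NAD-dependent sirtuins (Sirt) remove them. Lysine methyltransferases (Kmt, Setd, Ezh, Ehmt) add methyl groups whose meaning depends on the lysine, and the demethylases (Kdm) take them off. In macrophages these enzymes are known for setting which inflammatory genes can be induced; Kdm6b is an example of a demethylase gene that is itself induced by inflammatory stimuli.

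Each array was a 1-colour Agilent array, on which a probe's brightness stands for the abundance of its transcript. A level below is the log2 processed signal of a probe minus the log2 75th percentile over the array's sample probes, so that 0 is the 75th percentile. Levels place a gene within its own array and are not compared between genes, because probes differ in affinity. Calling an array high or low for a gene likewise depends on this scaling, and only Kdm6b, Kdm3a and Hdac1 stayed on the same side of their own mean on every array under 5 other ways of correcting or scaling the signal. Detected means that on each of the 4 arrays at least 1 probe of the gene lay well above background by the scanner software's own mark. The arrays were not equally bright. The 75th percentile of the processed signal lay between 49.0 and 131 intensity units, lowest on replicate 4, and 31.1% to 38.8% of probes were well above background. Relative to 8 spike-in probes, sample signal was 0.12 log2 above replicate 1 on replicate 2, and -0.62 and -1.30 log2 against it on replicates 3 and 4. No pair of arrays held identical values. Replicates 1 and 2 were closest, with a median difference of 0.05 log2 over 1014 probes spotted 10 times, against 0.15 to 0.40 log2 for the other pairs and an expected error of 0.025 log2 from spot noise. Of the macrophage markers 8 of 10 measured were detected (Marco and Adgre1 were not). Markers of lung epithelium (0 of 6), fibroblasts (0 of 4) and neutrophils (0 of 3) were not detected, while 2 of 3 endothelial markers (Pecam1 and Cdh5) and 1 of 3 T and B cell markers (Cd3d) were. Their part in the results was not tested.

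Most of the measured histone-modifying genes were detected in the exposed macrophages. Of the 46 measured members, 33 (71.7%) were well above background on all 4 arrays, beside 44.4% of all measured genes. A further 4 (Kmt5b, Hdac10, Setd7 and Kat14) were so on 1 to 3 arrays, beside 9.45% of all genes, and 9 on none. By role, 10 of 13 demethylases (76.9%), 8 of 11 methyltransferases (72.7%), 6 of 7 acetyltransferases (85.7%) and 4 of 5 sirtuins (80.0%) were detected, and 5 of 10 zinc deacetylases (50.0%). The zinc deacetylases thus lay closest to the 44.4% of all genes. Their 5 detected symbols include Hdac1l, by its name a copy of Hdac1. The groups hold 5 to 13 measured genes, so 1 gene moves a share noticeably. Members that were not detected were Kdm4c, Kdm4d and Kdm5b among the demethylases, the methyltransferase gene Setd6, the deacetylase genes Hdac2, Hdac8, Hdac9 and Hdac11, and the mitochondrial sirtuin gene Sirt4. This concerns their probes and does not show that the transcripts were absent. In bulk RNA, fewer cells with a transcript and less of it per cell cannot be told apart. The 21 members without a matched probe, among them Ep300, Sirt1, Kdm6a and all of Kmt2a, Kmt2b, Kmt2c and Kmt2d, were not analysed here. The remaining symbols of that kind were Sirt2, Setd1a, Setd1b, Setd2, Setd3, Ehmt1, Kdm3b, Kdm5c, Kdm5d, Kdm7a, Kat2b, Kat6b, Hdac6 and Hdac7.

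**Figure D1:**
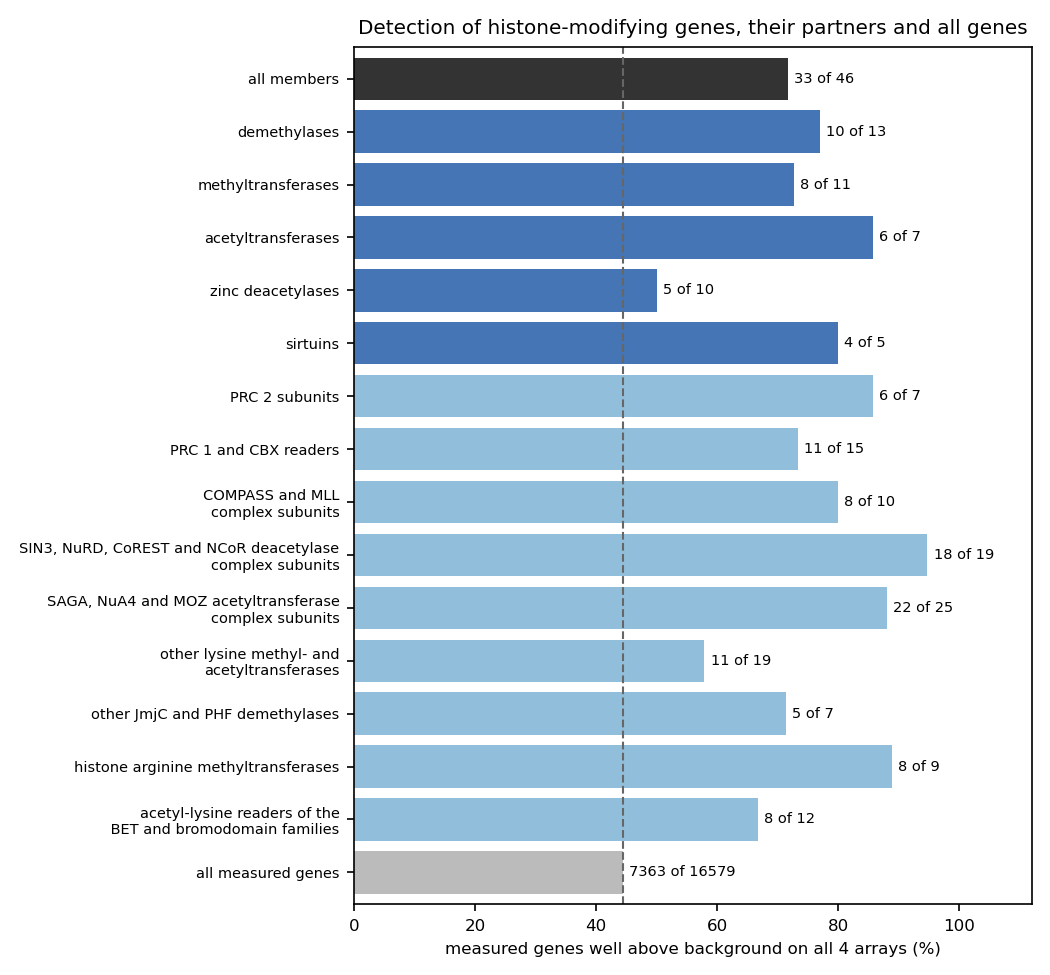
Share of measured genes well above background on all 4 arrays (percent, horizontal axis) for all members, the 5 role groups, 9 lists of partner genes and all measured genes; the dashed line marks the 44.4% of all genes. The zinc deacetylases, with 5 of 10 detected, are the role group nearest to the line.

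Some close relatives were both detected, such as Kdm1a and Kdm1b, Kdm2a and Kdm2b, Ezh1 and Ezh2, and Sirt6 and Sirt7, and others were not. Hdac1 was detected and Hdac2 was not, although the encoded proteins commonly sit together in the same repressor complexes. Likewise Kdm4a and Kdm4b were detected and Kdm4c and Kdm4d were not, Kdm5a was detected and Kdm5b was not, and Hdac4 and Hdac5 were detected and their relative Hdac9 was not. Hdac9 has 2 probes and neither was well above background on any array. Hdac2, Kdm4c, Kdm4d and Kdm5b rest on 1 probe each.

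The promoters of Kdm6b and Ezh2 are shown because these genes encode an eraser and a writer of the same methyl mark. Another reason is that their probes moved in opposite directions between the arrays. The promoters of Hdac4 and Hdac9 are shown because these relatives differed in detection. Each runs from 250 bases before to 50 bases after the transcription start in RefSeq (build GRCr8), 5′ to 3′ on the gene's strand, with every CG dinucleotide in capitals. All 4 genes lie on the minus strand, Kdm6b at chr10:54640965-54641264, Ezh2 at chr4:77687134-77687433, Hdac4 at chr9:100197588-100197887 and Hdac9 at chr6:57052522-57052821.
Kdm6b: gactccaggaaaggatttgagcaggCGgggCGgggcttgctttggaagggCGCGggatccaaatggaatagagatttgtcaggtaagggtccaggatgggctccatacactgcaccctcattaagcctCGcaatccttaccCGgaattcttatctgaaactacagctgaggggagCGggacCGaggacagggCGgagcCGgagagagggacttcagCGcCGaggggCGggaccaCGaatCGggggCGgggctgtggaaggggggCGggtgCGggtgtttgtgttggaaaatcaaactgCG
Ezh2: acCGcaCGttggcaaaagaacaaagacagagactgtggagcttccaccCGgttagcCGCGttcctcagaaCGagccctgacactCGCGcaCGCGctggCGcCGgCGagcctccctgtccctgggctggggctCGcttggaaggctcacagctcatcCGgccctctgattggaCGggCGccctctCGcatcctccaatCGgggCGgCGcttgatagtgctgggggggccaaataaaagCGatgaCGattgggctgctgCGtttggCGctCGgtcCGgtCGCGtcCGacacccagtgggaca
Hdac4: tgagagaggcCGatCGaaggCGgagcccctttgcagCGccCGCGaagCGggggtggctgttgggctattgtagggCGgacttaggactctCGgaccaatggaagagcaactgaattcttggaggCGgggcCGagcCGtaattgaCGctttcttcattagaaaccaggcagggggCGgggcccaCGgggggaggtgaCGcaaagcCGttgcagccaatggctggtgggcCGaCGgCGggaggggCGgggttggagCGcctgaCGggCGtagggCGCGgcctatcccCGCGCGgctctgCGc
Hdac9: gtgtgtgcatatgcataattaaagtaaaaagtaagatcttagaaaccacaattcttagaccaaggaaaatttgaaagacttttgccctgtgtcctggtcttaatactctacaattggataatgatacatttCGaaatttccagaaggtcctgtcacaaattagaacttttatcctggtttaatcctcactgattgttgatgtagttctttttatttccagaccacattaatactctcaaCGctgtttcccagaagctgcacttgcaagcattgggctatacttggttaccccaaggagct
The Kdm6b promoter held 19 CG dinucleotides, that of Ezh2 30, that of Hdac4 30 and that of Hdac9 2. A GC box (GGGCGG or its reverse complement CCGCCC) occurred 5 times in the Kdm6b promoter, 1 time in that of Ezh2, 3 times in that of Hdac4 and 0 times in that of Hdac9. A CCAAT box (CCAAT or ATTGG) occurred 3 times at Ezh2, 2 times at Hdac4, 2 times at Hdac9 and 0 times at Kdm6b.

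CG-rich promoters without a TATA box were common to the histone-modifying genes, as they were to the genes these cells expressed. RefSeq promoters were matched for 55 of the 67 members and held a median of 23 CG dinucleotides (range 2 to 56), beside 7 over all 27457 promoters and 21 over the 6185 promoters of detected genes. A GC box was present in 67.3% of the members' promoters, beside 34.9% of all promoters and 62.9% of those of detected genes. The CCAAT box was found in 47.3% of the members' promoters, beside 37.7% of all promoters and 39.7% of those of detected genes. TATAAA (or TTTATA) was in 0 of the 55, beside 14.3% of all promoters and 6.98% of those of detected genes. The 26 matched promoters of detected members had a median of 23 CG dinucleotides (12 to 48), and the 8 of members detected on no array a median of 21 (2 to 35). Letters in this window were counted on both strands; they do not show that a factor binds there. The members' promoters were thus nearer in these counts to those of the genes detected here than to those of all genes.

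Among the demethylases, the genes with the narrowest and with some of the widest spread between replicates stood side by side. Kdm6b removes the Polycomb methyl mark from histone H3. Its levels were -0.0034, -0.35, 1.07 and 1.73 on replicates 1 to 4, a range of 2.08 log2 or 4.22-fold (SD 0.96, n = 4). It was high on replicates 3 and 4 and low on replicates 1 and 2. Kdm3a, which demethylates lysine 9 of histone H3 and is known as a gene induced by hypoxia, varied the other way. Its levels were 0.015, -0.0052, -0.77 and -1.01 on replicates 1 to 4 (SD 0.52, n = 4), high on replicates 1 and 2 and low on replicates 3 and 4.

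Kdm1a, the flavin-dependent demethylase of the CoREST repressor complex, had a narrow spread on this scale. Its levels were 1.52, 1.42, 1.56 and 1.48 on replicates 1 to 4 (SD 0.060, n = 4). Kdm5a, an eraser of the methyl mark of active promoters, had levels of 1.47, 1.50, 1.37 and 1.43 (SD 0.058). The replicates spanned 0.14 log2 in both genes, which is 1.1-fold. Kdm2b, which brings a variant Polycomb complex to CG-rich promoters, was slightly higher on replicate 3, with levels of 3.43, 3.57, 3.82 and 3.58 on replicates 1 to 4 (SD 0.16). Kdm4a had levels of 0.72, 0.60, 0.80 and 1.06 (SD 0.20) and its relative Kdm4b 1.68, 1.45, 2.14 and 2.53 (SD 0.48), both highest on replicate 4 and lowest on replicate 2. Of the remaining detected demethylases, Kdm1b averaged 0.53 ± 0.17, Kdm2a 1.48 ± 0.17 and Kdm8 2.42 ± 0.25 (SD, n = 4 each). Over the 10 detected demethylases the SD had a median of 0.18 and ranged from 0.058 to 0.96.

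**Figure D2:**
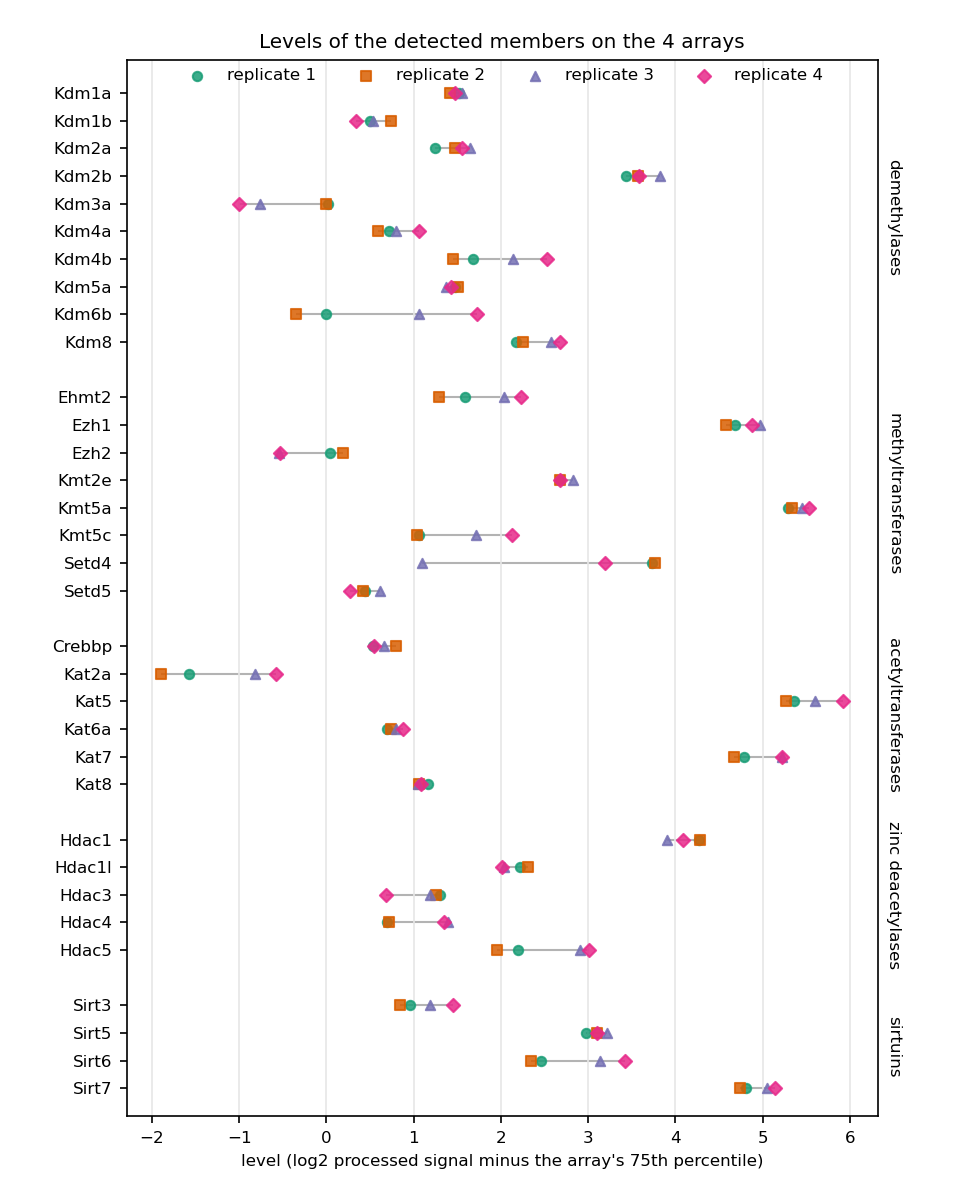
Level of each of the 33 detected members on the 4 arrays (log2 processed signal minus the array's 75th percentile), grouped by role; a line joins the lowest and highest array of a gene. Kdm6b spans -0.35 to 1.73, while the 4 points of Kdm1a, Kdm5a and Kat8 nearly coincide; Setd4 is low on replicate 3, where its probe lies in an area of low signal.

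Both Polycomb methyltransferase genes were detected. Ezh1 and Ezh2 encode the alternative catalytic subunits of Polycomb repressive complex 2; Ezh2 is the one known to go with dividing cells. Ezh2 had levels of 0.038, 0.20, -0.54 and -0.54 on replicates 1 to 4 (SD 0.38, n = 4), low on replicates 3 and 4. Ezh1 had levels of 4.69, 4.58, 4.97 and 4.88 (SD 0.18), slightly above its own mean on those arrays. On replicate 4 it did not differ from the median shift of all detected genes (-0.0024 log2 relative to it). Its side of its own mean there changed under 4 of the 5 other scalings. Ehmt2, a writer of methyl groups on lysine 9 of histone H3, had levels of 1.59, 1.29, 2.03 and 2.24 on replicates 1 to 4 (SD 0.43), highest on replicate 4 and lowest on replicate 2.

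Genes for methylation of histone H4 lysine 20 differed in spread. Kmt5a, which places the first methyl group there, had levels of 5.29, 5.34, 5.45 and 5.54 on replicates 1 to 4 (SD 0.11). Kmt5c, which extends it, had levels of 1.06, 1.04, 1.71 and 2.13 (SD 0.53), highest on replicate 4, and Kmt5b, its relative, was well above background on replicates 1 to 3 with levels of -0.21, -0.19 and -0.68. The brighter probe of Kmt5b, which gave these levels, was not well above background on replicate 4, where its level was -2.06. The other probe of Kmt5b was well above background on no array. Kmt2e, a member of the MLL family, had levels of 2.67, 2.68, 2.82 and 2.67 (SD 0.073). Setd5 averaged 0.44 ± 0.14 (SD, n = 4). Setd7, which methylates histone H3 and non-histone proteins, was well above background on replicates 1 and 2 alone, with levels of -2.14 and -1.66. On replicates 3 and 4 its levels were -2.19 and -2.25, close to that on replicate 1.

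Setd4 had the widest spread of the 33 detected members, and its probe lay where replicate 3 was dim. Its levels were 3.73, 3.76, 1.095 and 3.20 on replicates 1 to 4 (SD 1.26, n = 4), low on replicate 3 by 2.63 log2 below the median of the other arrays. On that array an area of 26 adjoining blocks, each of 16 spot rows by 8 spot columns, was dim in the deposited values between rows 145 and 256. The Setd4 spot (row 217, column 82) is inside it. All 14 other detected genes with a spot within 8 rows and 4 columns of it were also lower on replicate 3, by a median deviation of -2.39 log2 (-3.30 to -0.90). Without replicate 3 the SD of Setd4 was 0.32. Apart from Setd4, no detected member took its level from a probe in that area; 1 secondary probe of Kmt5a lies in it.

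**Figure D3:**
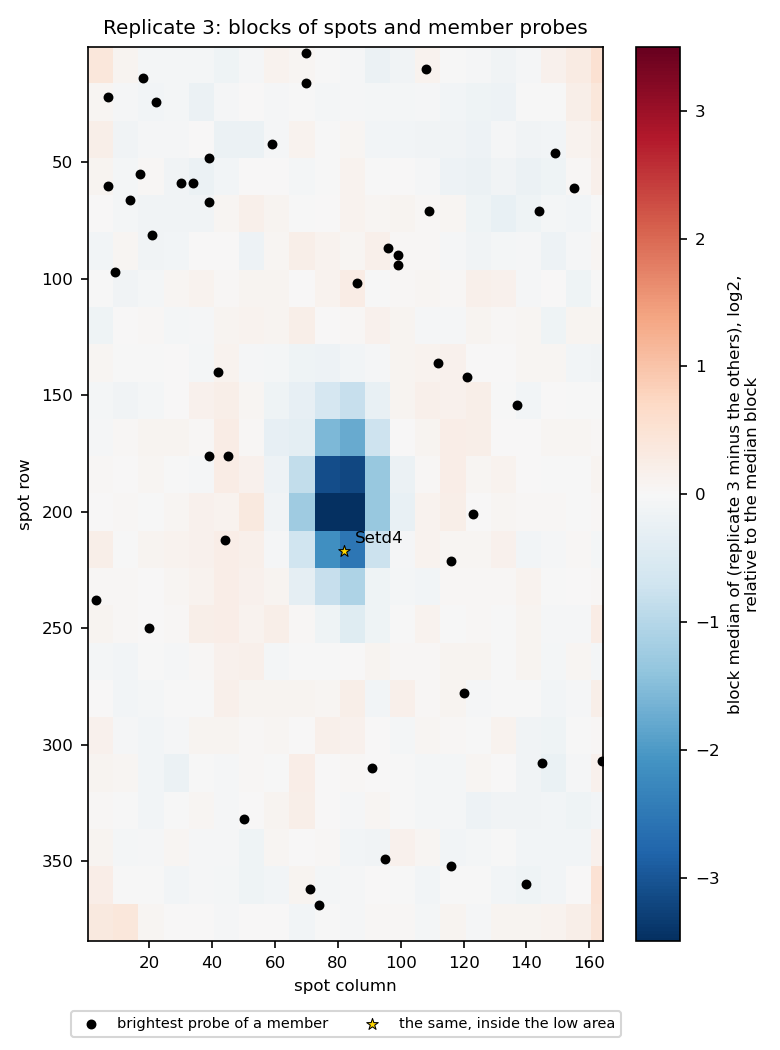
The array of replicate 3 by spot row and column; colour gives the block median of replicate 3 minus the other arrays (log2), relative to the median block, and points mark the probes from which members took their levels. Of the probes plotted, which are those that gave the levels, that of Setd4 (star) lies in the dark area near the centre.

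Acetyltransferase genes were detected in 6 of 7 cases, and the SDs of these 6 ranged from 0.050 to 0.62. Kat8, the catalytic subunit of the MSL and NSL complexes, had the narrowest spread of all detected members, with levels of 1.16, 1.06, 1.05 and 1.08 on replicates 1 to 4 (SD 0.050, n = 4). Kat2a, the acetyltransferase of the SAGA complex, had the widest of the 6. Its levels were -1.58, -1.90, -0.82 and -0.58 (SD 0.62), high on replicates 3 and 4 and low on replicates 1 and 2. Its mean of -1.22 was the lowest of all detected members, so this spread rests on signals nearer to background. Kat5 (Tip60), the catalytic subunit of NuA4, had levels of 5.35, 5.26, 5.61 and 5.93 (SD 0.30), and Kat7 had levels of 4.79, 4.68, 5.22 and 5.23 (SD 0.29). Both were lowest on replicate 2 and highest on replicate 4. Kat6a (MOZ) had levels of 0.69, 0.75, 0.80 and 0.88 (SD 0.082) by its brightest probe, while its other probes had SDs of 0.18 and 0.37. Crebbp (CBP), the co-activator paired with the p300 protein, had levels of 0.54, 0.79, 0.66 and 0.55 (SD 0.12), highest on replicate 2. Kat14 was well above background on replicate 2 alone, at a level of -1.92. Its levels on replicates 1, 3 and 4 were -2.39, -2.72 and -2.07.

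The deacetylase genes included subunits of the main repressor complexes. Hdac1, of the SIN3, NuRD and CoREST complexes, had levels of 4.28, 4.28, 3.90 and 4.09 on replicates 1 to 4 (SD 0.18, n = 4), lowest on replicate 3. Hdac3, the catalytic subunit of the NCoR complex, had levels of 1.31, 1.26, 1.19 and 0.69 (SD 0.29), low on replicate 4. The class IIa genes Hdac4 and Hdac5, whose proteins move between cytoplasm and nucleus and depend on the NCoR complex for activity, were high on replicates 3 and 4. Levels of Hdac4 were 0.69, 0.72, 1.39 and 1.35 (SD 0.38), and levels of Hdac5 were 2.19, 1.96, 2.91 and 3.00 (SD 0.52). The symbol Hdac1l had levels of 2.22, 2.31, 2.03 and 2.01 (SD 0.14); by its name it is a copy of Hdac1, and how far either probe also binds the other transcript was not tested. Hdac10, a polyamine deacetylase, was well above background on replicates 1 to 3, with levels of -0.68, -1.34 and -0.96. On replicate 4, where it was not, its level was -1.23, above that on replicate 2.

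Of the sirtuins, the nuclear Sirt6 and Sirt7 and the mitochondrial Sirt3 and Sirt5 were detected. Sirt6, a chromatin deacetylase known for restraining glycolytic and inflammatory genes, had levels of 2.47, 2.35, 3.14 and 3.43 on replicates 1 to 4 (SD 0.52, n = 4), high on replicates 3 and 4. Sirt7, found at ribosomal DNA, had levels of 4.81, 4.74, 5.05 and 5.14 (SD 0.19). Sirt3 had levels of 0.96, 0.85, 1.19 and 1.46 (SD 0.27), highest on replicate 4. Sirt5, which removes succinyl groups, had levels of 2.98, 3.10, 3.21 and 3.11 (SD 0.098), the narrowest of the 4 genes.

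The histone-modifying genes ranged from nearly even to widely spread between replicates. The median SD of the 33 detected members was 0.20 log2, beside 0.25 over the 7363 detected genes, and 18 of the 33 lay at or under that median of all genes. An SD under 0.1 was found for 6 members (18.2%), namely Kat8, Kdm5a, Kdm1a, Kmt2e, Kat6a and Sirt5, beside 13.2% of detected genes. An SD over 0.5 was found for 7 members (21.2%), beside 11.6% of detected genes; they were Setd4, Kdm6b, Kat2a, Kmt5c, Kdm3a, Hdac5 and Sirt6. Without Setd4 it was 6 of 32 (18.8%). On at least 1 array, 5 members (15.2%) lay over 1 log2 from the median of the other arrays, beside 8.88% of detected genes. These were Setd4 on replicate 3, Kat2a on replicate 2 by -1.08, and Kdm6b, Kmt5c and Kdm3a on replicate 4 by 1.73, 1.07 and -1.0; without Setd4 they are 4 of 32 (12.5%). Without replicate 4, 3 of 35 members (8.57%; Setd4, Kdm6b and Kat2a) had an SD over 0.5, beside 5.57% of detected genes. The deviating members numbered 2 without replicate 2 (6.06%, beside 4.67%) and 2 without replicate 4 (5.71%, beside 2.76%). With normexp background correction 2 of 33 members (6.06%) had an SD over 0.5, beside 7.01% of detected genes. Such members numbered 19 with spike-in scaling (57.6%, beside 60.1%) and 5 with median scaling (15.2%, beside 20.997%). The members' larger share with an SD over 0.5 thus did not hold with normexp, spike-in scaling or median scaling. It remained without replicate 4 and, for example, with scaling by quantiles (15.2%, beside 9.02%).

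**Figure D4:**
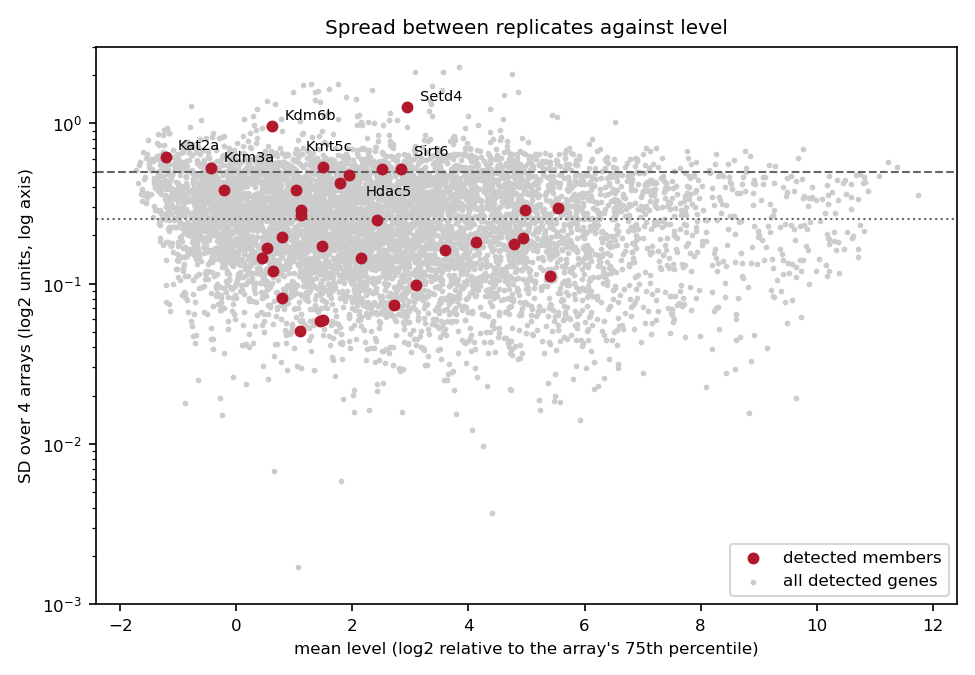
SD over the 4 arrays (log2 units, log axis) against mean level (the log2 scale defined above) for the 33 detected members and all 7363 detected genes; the dashed line marks an SD of 0.5 and the dotted line the median SD of all detected genes, 0.25. The 7 named members lie above the dashed line, and the lowest member, Kat8, has an SD of 0.050.

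As a group the members shifted with the rest of the array. Each member's level was set against its own average over the 4 arrays, and the median of these differences was -0.12, -0.06, 0.11 and 0.10 log2 on replicates 1 to 4, beside -0.07, -0.07, 0.06 and 0.10 over all detected genes. Members above their own mean numbered 10 of 33 on replicate 1 (30.3%), beside 38.7% of all detected genes, and 10 of 33 on replicate 2 (30.3%), beside 41.9%. On replicate 3 they numbered 26 (78.8%), beside 61.9%, and on replicate 4 they numbered 20 (60.6%), beside 59.6%. The medians of members and of all genes thus differed by at most 0.05 log2 on any array.

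**Figure D5:**
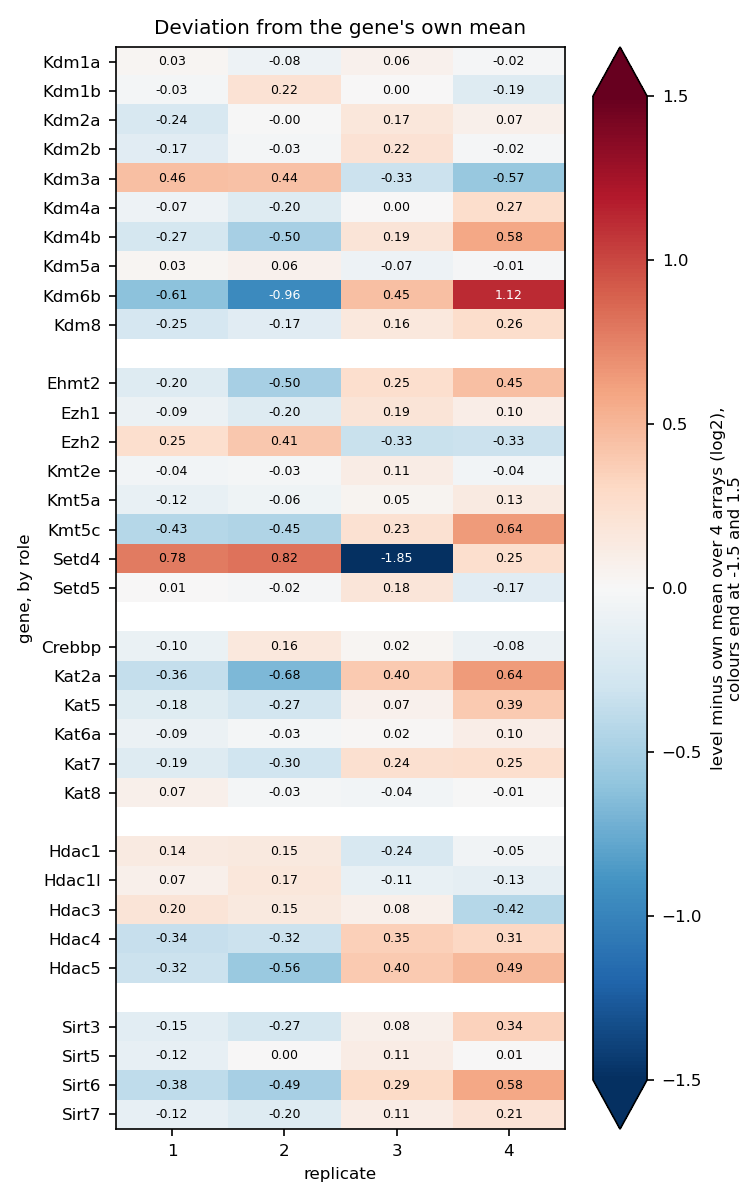
Level of each detected member minus its own mean over the 4 arrays (log2), by replicate and grouped by role; colours end at -1.5 and 1.5. Kdm6b, Kat2a, Kmt5c and Sirt6 are negative on replicates 1 and 2 and positive on replicates 3 and 4, while Kdm3a, Ezh2 and Hdac1 are the opposite way; with spike-in scaling Kat2a, Kmt5c and Sirt6 turn negative on replicate 4 and positive on replicate 1, and with normexp Ezh2 turns negative on replicate 1.

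The side of its own mean on which a gene lay depended on the scaling for most members. Under the 5 others tried (spike-ins, quantiles, the median, the 75th percentile over spots and normexp background correction), 3 of the 33 kept their direction on all 4 arrays. Measured relative to the median shift of all detected genes on the array, 17 of 33 kept it, among them Ehmt2, Kdm4b, Kmt5c, Hdac3, Hdac4, Hdac5, Sirt3 and Sirt6. Scaling by spike-ins, the median or the 75th percentile over spots moves a whole array and cancels in this measure. Only quantiles and normexp could change a direction there. With spike-in scaling, which keeps the lower brightness of replicate 4, the SD of Kdm6b was 0.33, that of Kmt5c 0.14, that of Hdac5 0.26 and that of Sirt6 0.18, while that of Kdm3a was 1.17 and that of Ezh2 1.01. The 6 members with an SD under 0.1 had SDs of 0.58 (Kat6a) to 0.69 (Kdm5a) with that scaling, where the median SD of all detected genes was 0.59. The high or low arrays named above are thus positions relative to the rest of the same array.

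A difference between 2 genes of the same array does not depend on a scaling that moves a whole array. For pairs of related function, chosen after their values were seen, this difference is given minus its mean over the arrays. It can change with normexp or quantiles, and is not given under them. The ranges are not set beside those of other gene pairs. Kdm6b minus Ezh2, an eraser against a writer of the Polycomb mark, was -0.86, -1.37, 0.79 and 1.44 log2 on replicates 1 to 4, a range of 2.81 or 7.01-fold. Kdm3a minus Ehmt2, an eraser against a writer at lysine 9 of histone H3, ran the other way, with 0.65, 0.93, -0.57 and -1.02 and a range of 1.95 (3.86-fold). Both differences, like the others below, separated replicates 1 and 2 from replicates 3 and 4. All detected genes grouped the arrays in the same way. Their Pearson correlation was 0.998 between replicates 1 and 2 and 0.990 between replicates 3 and 4. It was 0.971 to 0.980 for the other pairs of arrays. Ezh1 minus Ezh2 was -0.34, -0.60, 0.52 and 0.42, a range of 1.13 or 2.18-fold. Hdac5 minus Hdac3 was -0.52, -0.71, 0.32 and 0.91, a range of 1.62 or 3.07-fold. Kmt5c minus Kmt5a was -0.31, -0.38, 0.18 and 0.51, a range of 0.89 or 1.86-fold.

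Several members had more than 1 probe, which allowed a check within the arrays. The 46 measured members had 62 probes, and 13 members had several. In 6 of them (Crebbp, Ehmt2, Kat7, Kdm4b, Kdm5a and Kmt5b) the probes differed in how many arrays were well above background; the brighter probe gave the level. For Kat7 the dimmer probe was well above background on no array, and for Crebbp it was so on 1. Where all probes of a detected member were well above background on every array, deviations from the mean could be set beside each other. Sirt7's probes differed by at most 0.07 log2 on any array. Those of Hdac4 differed by up to 0.69 log2, as much as the gene's range over the arrays. Its dimmer probe had levels of -1.89, -0.88, -1.56 and -0.68 on replicates 1 to 4, above its own mean on replicates 2 and 4. The high value of Hdac4 on replicate 3 thus rests on 1 probe. Those of Kmt2e differed by up to 0.15, also as much as its range. For Kat6a the difference reached 0.45 log2, more than the range of 0.19 of the probe used, and for Hdac1l it reached 0.22. The third probe of Kmt5a, the one in the dim area, differed from the probe used by 0.51 on replicate 3.

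Most of the genes called partners here were detected as well. They encode subunits of histone-modifying complexes, readers of acetyl-lysine and further histone-modifying enzymes. Over 9 lists, 97 of 123 measured partner genes (78.9%) were detected, beside 44.4% of all genes. Subunits of the SIN3, NuRD, CoREST and NCoR deacetylase complexes were detected in 18 of 19 cases, with Brms1, Gatad2a and Gatad2b among them, and Tbl1xr1 on 3 arrays. SAGA, NuA4 and MOZ acetyltransferase complex subunits were detected in 22 of 25 cases, for example Brd8, Brpf1 and Brpf3. Polycomb repressive complex 2 subunits were detected in 6 of 7 cases, with Eed, Epop and Mtf2 among them, and Phf1 on 3 arrays. Polycomb repressive complex 1 and CBX genes were detected in 11 of 15 cases, Cbx2, Cbx6, Cbx7 and Phc3 on no array.

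Subunits of the COMPASS and MLL complexes, which carry the enzymes of Kmt2a to Kmt2d, Setd1a and Setd1b, were detected in 8 of 10 cases. Ash2l, Cxxc1 and Dpy30 were among them, while Psip1 and Wdr82 were well above background on 3 arrays. These complexes are described by their subunits, since Kmt2a, Kmt2b, Kmt2c, Kmt2d, Setd1a and Setd1b had no matched probe. Histone arginine methyltransferase genes were detected in 8 of 9 cases, and other lysine methyltransferases and acetyltransferases in 11 of 19. Other demethylases of the JmjC and PHF families were detected in 5 of 7 cases, and readers of acetyl-lysine in 8 of 12. The partner genes had a median SD of 0.23 log2, and 8 of the 97 (8.25%) had an SD over 0.5, beside 11.6% of all detected genes. Of the 97, 8 (8.25%) lay over 1 log2 from the median of the other arrays on some array, beside 8.88% of all detected genes.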

How the data were processed

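The 4 arrays hold RNA of exposed samples that the labels call biological replicates. Spots were read with Agilent Feature Extraction 11.0.1.1, per the file headers, and the deposited unit is the intensity of a spot, not logged; the processed signal is background-corrected and detrended within each array by the authors' software and not normalized between arrays. All arrays shared 1 slide and 1 scan, so neither could be used as a block. Non-uniform spots and population outliers by the software's marks were dropped, the log2 processed signal was averaged over the spots of a probe, and each array was centred on its 75th percentile over the 45598 sample probes. Saturation affected no sample spot. Accessions gave probe names through RefSeq (GRCr8): 21109 matched and 24489 were left unnamed. The headers name an older build, so no probe coordinates are given. A gene took its brightest probe and was detected if at least 1 probe was well above background, on more than 50% of the probe's spots, on every array.

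No test between groups or against other genes was run, since there is 1 group; Dixon's criterion for a value apart from the others was applied to the 37 members well above background on at least 1 array. Counts, medians and SDs of the members stand beside the same over all genes. Values on each array are given for a roster of well-known enzymes, members detected on 1 to 3 arrays, the 6 largest and 6 smallest SDs, members over 1 log2 from the other arrays, members with discordant probes and members with a probe in the area of low signal; of each partner list, up to 3 detected genes in alphabetical order and those detected on fewer than 4 arrays could be named. The members, lists and rules were chosen with earlier results of these data known. The dim area on replicate 3 is made of adjoining blocks with a median over 0.25 log2 below the median block. Counting steps were tested on simulated data. Alternatives were the detection call, the probe rule, normexp background correction (limma 3.58.1 in R 4.3.3), 3 other scalings between arrays (spike-ins, quantiles, the median), leaving out that area and leaving out each replicate; the 75th percentile over spots was added after seeing the data. Python 3.11.15, numpy 2.4.6, pandas 2.3.3 and matplotlib 3.10.9 were used. There is no read depth; precision is limited by the 4 arrays and by how far a signal lies above background.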

Additional observations from a re-analysis of the deposited data

Results flagged for a closer look

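The brightest probe of Kmt2e stood apart on replicate 3. Its level there was 2.82, while those of the other replicates were 2.67, 2.68 and 2.67, so the gap to the nearest replicate made up 0.948 of the whole range, above Dixon's critical value for 4 values at the 95% level. The range was 0.15 log2 (1.11-fold), and the other replicates nearly coincided. The gene's other probe, well above background on all 4 arrays, did not show this, with levels of 1.26, 1.18, 1.21 and 0.96 on replicates 1 to 4. It was the only one of 37 members detected on at least 1 array that passed, and chance alone passes about 1 in 20.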

How the results depend on the processing

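Of the counts, medians and shifts recomputed under 14 alternatives, 286 kept their direction and stayed near their values, 10 moved and 8 reversed. The number of detected members was 33, between 28 with every probe required and 39 with the software's looser mark (positive and significant). All detected genes numbered 7363, and 6401 and 9184 under these settings. No alternative moved the number of detected members by over 1.5 times. With every probe required, 5 acetyl-lysine readers were detected in place of 8. With normexp background correction, 2 members (6.06%, beside 7.01% of all detected genes) in place of 7 had an SD over 0.5, 2 (6.06%, beside 6.11%) in place of 5 deviated, and the median shift turned to 0.0052 on replicate 2 and -0.17 on replicate 4. Scaling to the spike-ins gave a median SD of 0.57 for the detected members; 19 had an SD over 0.5 (57.6%, beside 60.1%), 18 deviated (54.5%, beside 57.9%), and the median shifts on replicates 1 to 4 turned to 0.33, 0.51, -0.060 and -0.75, beside 0.38, 0.51, -0.11 and -0.75 over all detected genes. Scaling by the median gave a median SD of 0.37, and shifts of 0.23 on replicate 2 and -0.34 on replicate 4, beside 0.23 and -0.35 over all detected genes. Under it 5 members had an SD over 0.5 (15.2%, beside 20.997% of detected genes) and 5 deviated (15.2%, beside 12.753%). Leaving out each replicate in turn gave 3 to 8 members with an SD over 0.5 and 2 to 5 that deviated. The shares with an SD over 0.5 without replicates 1 to 4 were 24.2%, 15.2%, 21.2% and 8.57% of members. Those of detected genes were 14.5%, 11.4%, 16.6% and 5.57%. The shares that deviated were 12.1%, 6.06%, 15.2% and 5.71% of members. Those of detected genes were 6.66%, 4.67%, 9.28% and 2.76%. The causes were not tested.

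No paired analysis was possible because the 4 arrays form 1 group. Members and lists were not chosen blind to these data. No cause of the differences between replicates was tested. Without replicate 4, the dimmest, 3 members had an SD over 0.5 (8.57%, beside 5.57% of detected genes). A probe's level depends on its affinity, and weak probes near background are limited in precision.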

Other observations

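Among partner genes, some differed between replicates as much as the wide-spread enzymes did. Dot1l, the methyltransferase of histone H3 known from transcribed genes, had levels of 3.85, 3.88, 5.01 and 5.41 on replicates 1 to 4 (SD 0.79, n = 4). Gatad2a, a NuRD subunit, had levels of 4.32, 4.18, 5.05 and 5.36 (SD 0.57). Both were higher on replicates 3 and 4 relative to the 75th percentile of the array. Ash2l, a core COMPASS subunit, had levels of 3.36, 3.34, 2.61 and 2.40 (SD 0.50) and lay lower on the same arrays. Brd8 of NuA4 was even, with levels of 2.81, 2.94, 2.92 and 2.84 (SD 0.064).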
